A study of Mus musculus with 3 samples.

Results

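Chromatin accessibility was described here at 9 genes of the glutamatergic neuron lineage, out of 21605 genes counted, in nuclei of whole mouse embryos. The genes were chosen by name, with earlier results of these data known: the proneural factors Neurog1 and Neurog2, the neuronal factors Neurod1, Neurod2 and Neurod6, the T-box factors Eomes and Tbr1, and the vesicular glutamate transporters Slc17a6 and Slc17a7. All 9 were found in the annotation. Single-nucleus ATAC-seq (snATAC-seq), in which the transposase Tn5 cuts open DNA, was performed on untreated wild-type (WT) C57BL/6JRj embryos of the stages E12.5, E13.5, E15.5 (E, embryonic day), with 1 library per stage from a few frozen sections each. The stages hold 153, 970 and 756 nuclei, and the submitters assigned all of them to 12 clusters, numbered 0 to 11. Clusters 0, 6 and 9 together (27, 213 and 242 nuclei at the 3 stages) were compared with the rest, clusters 1, 3, 5, 7, 8, 10 and 11 (56, 596 and 316 nuclei); the shallow clusters 2 and 4 (429 nuclei) were left out, except in an alternative that added them to the rest.

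In the developing brain and spinal cord, Neurog1 and Neurog2 are basic helix-loop-helix (bHLH) factors that commit dividing progenitors to a neuronal fate, and the Neurod factors act after them as the cells leave the cycle and differentiate. In the cortex, Eomes marks intermediate progenitors and Tbr1 early-born excitatory neurons, while Slc17a6 (VGLUT2) and Slc17a7 (VGLUT1) load glutamate into synaptic vesicles, Slc17a7 being known mainly from the postnatal forebrain. Many bHLH factors bind the E-box CANNTG, and proneural factors favour its form CAGATG.

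Every library held open-chromatin profiles of uneven depth, with 9402554, 87687839 and 53120243 unique fragments and medians of 30239, 62902.5 and 43485.5 per nucleus, so E12.5 carries the fewest counts. In clusters 0, 6 and 9 together the totals were 2950630, 16281180 and 16311529. Cluster 6 has only 5 nuclei at E12.5, and its values there rest on few fragments. Accessibility at 7 pan-neuronal genes was at least 1.5-fold above the other clusters for all 7 in clusters 0 and 6 and for 2 in cluster 9, whereas all 7 neural progenitor genes were so in cluster 9, 3 in cluster 6 and 1 in cluster 0. Of 6 sensory neuron genes, 1 was so in cluster 0, 2 in cluster 6 and 0 in cluster 9, and no gene of these lists was at 0 in any of the 3 clusters. Clusters 0 and 6 are therefore called neuron-like and cluster 9 neural progenitor-like. Their nuclei may come from any part of the nervous system.

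Sequences around Neurog2, Neurod2, Neurod6 and Slc17a6, chosen after their values were seen, are shown because each had a higher level in cluster 6 than in cluster 9 or the reverse at E13.5 and E15.5. They are mm10 sequences, the 300 bases with most insertions of a 500 bp tile that was chosen by its level in E13.5, after profiles of the loci had been seen. Capitals mark CAGATG or its reverse complement CATCTG, which is one form of the E-box.
Neurod6 upstream tile, chr6:55700527-55700826 (+ strand): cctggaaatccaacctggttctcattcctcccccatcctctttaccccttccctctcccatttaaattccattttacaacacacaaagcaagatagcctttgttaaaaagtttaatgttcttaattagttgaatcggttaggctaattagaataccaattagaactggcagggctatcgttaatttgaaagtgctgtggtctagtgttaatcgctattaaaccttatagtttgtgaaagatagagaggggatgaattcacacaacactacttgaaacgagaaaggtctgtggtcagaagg
Neurod2 upstream tile, chr11:98334167-98334466 (+ strand): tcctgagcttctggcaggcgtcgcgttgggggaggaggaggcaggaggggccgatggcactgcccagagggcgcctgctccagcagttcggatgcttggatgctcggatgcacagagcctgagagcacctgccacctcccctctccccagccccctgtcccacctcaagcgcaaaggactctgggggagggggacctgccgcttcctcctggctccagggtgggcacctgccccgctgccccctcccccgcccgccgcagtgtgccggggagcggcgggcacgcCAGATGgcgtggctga
Neurog2 upstream tile, chr3:127625501-127625800 (+ strand): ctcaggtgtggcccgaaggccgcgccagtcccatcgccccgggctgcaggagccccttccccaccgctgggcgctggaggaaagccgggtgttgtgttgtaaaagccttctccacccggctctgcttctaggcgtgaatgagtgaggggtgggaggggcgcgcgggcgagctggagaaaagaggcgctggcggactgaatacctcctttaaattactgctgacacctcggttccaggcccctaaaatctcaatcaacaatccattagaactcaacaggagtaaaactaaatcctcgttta
Slc17a6 intron tile, chr7:51627192-51627491 (+ strand): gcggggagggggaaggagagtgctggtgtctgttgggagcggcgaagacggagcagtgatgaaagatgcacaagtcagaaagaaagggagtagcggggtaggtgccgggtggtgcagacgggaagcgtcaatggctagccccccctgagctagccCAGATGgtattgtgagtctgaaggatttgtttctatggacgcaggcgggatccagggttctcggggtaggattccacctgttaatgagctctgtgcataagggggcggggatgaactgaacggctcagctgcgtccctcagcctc
The Neurod6 tile lies -19487 bp from the gene start and the Neurod2 tile -4602 bp, both upstream and intergenic. The Neurog2 tile lies -7385 bp from the start, also intergenic, and the Slc17a6 tile 5244 bp downstream of the start, in an intron. CAGATG or CATCTG occurs once in the Neurod2 and Slc17a6 sequences and not in the other 2. Among 32851 RefSeq promoter sequences of 300 bases, 17.2% hold it. Those are promoters and were not picked by accessibility, so they are no matched background for these tiles.

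A first question was whether the loci are open in the neural clusters at all. Counts of fragments overlapping the gene body plus 2 kb upstream (the gene window) are given as counts per 1000000 unique fragments of the same nuclei (CPM), in the order E12.5, E13.5 and E15.5. Accessibility is a property of the DNA and is not expression.

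Both proneural genes were more accessible in clusters 0, 6 and 9 than in the rest. At Neurog1 (chr13:56250478-56252163, - strand), which starts neurogenesis in sensory ganglia and the dorsal neural tube, CPM was 14.2, 13.2 and 6.01 in the neural clusters against 5.57, 4.77 and 3.51 in the rest. At Neurog2 (chr3:127633135-127635631, + strand), which does so in cortex and spinal cord, it was 18.0, 29.0 and 16.6 against 8.18, 6.85 and 6.89. At every stage the neural value was the higher one for both genes. The log2 fold was 1.30 ± 0.24 for Neurog1 (SE, 3 libraries, edgeR adjusted p = 0.00357) and 1.67 ± 0.22 for Neurog2 (adjusted p = 0.000382).

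The 3 Neurod genes, which act in newborn and maturing neurons, were higher too. Neurod1 (chr2:79452521-79456751, - strand), also a factor of endocrine cells, had 8.81, 16.2 and 14.96 CPM against 3.34, 4.73 and 3.74. Neurod2 (chr11:98325415-98329648, - strand), a factor of maturing cortical neurons, had 10.2, 22.3 and 15.6 CPM against 12.3, 6.17 and 7.25. Neurod6 (chr6:55677822-55681263, - strand), known mostly from pyramidal neurons, had 5.08, 10.8 and 7.23 CPM against 0.557, 2.02 and 1.76. Neurod1 and Neurod6 were higher in the neural clusters at every stage. Neurod2 was so at E13.5 and E15.5, while at E12.5 its neural value lay under that of the rest. The log2 folds were 1.90 ± 0.23 for Neurod1 (adjusted p = 0.000229), 1.19 ± 0.30 for Neurod2 (adjusted p = 0.0188) and 2.46 ± 0.30 for Neurod6 (adjusted p = 0.000224), the last being the highest of the 9 genes.

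The T-box genes differed less. Eomes (chr9:118478212-118486132, + strand) had 6.44, 20.3 and 11.5 CPM against 7.43, 7.84 and 9.59. Its neural value was thus the lower one at E12.5, and its log2 fold of 0.74 ± 0.27 missed the threshold (edgeR adjusted p = 0.0998). Tbr1 (chr2:61802930-61814114, + strand) had 18.98, 27.5 and 22.0 CPM against 13.4, 13.6 and 14.99. It was higher in the neural clusters at every stage, with a log2 fold of 0.82 ± 0.17 (edgeR adjusted p = 0.00756).

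The transporters parted. Slc17a6 (chr7:51622006-51671119, + strand) had 29.5, 41.7 and 47.1 CPM against 12.45, 11.8 and 10.7, a log2 fold of 1.90 ± 0.18 (adjusted p = 7.02e-05). Slc17a7 (chr7:45163949-45176142, + strand) had 14.6, 35.6 and 27.6 CPM against 27.5, 28.0 and 24.0, a log2 fold of 0.11 ± 0.20 (adjusted p = 0.817). Slc17a6 was far higher in the neural clusters in each library, whereas for Slc17a7 the order of the groups changed between libraries.

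In all, 7 of the 9 genes were called higher in the gene window and 0 lower, at an adjusted p under 0.05, while 1336 of the 20088 genes tested (6.65%) were called higher and 836 lower. With all fragments as the library size in place of TMM factors, the median log2 fold of all genes was -0.099 and the split was 1041 higher and 1432 lower, and the same 7 genes were called. The clusters had been made from these same nuclei, so the tests measure how steadily the pooled clusters differed over 3 libraries of different stages and are no independent evidence of their identity. Cluster 0 held 1214867 of 2950630 neural fragments at E12.5, 6392603 of 16281180 at E13.5 and 11713285 of 16311529 at E15.5. Cluster 3 held 3475757 of 5381374 fragments of the rest at E12.5 and 5293416 of 22221522 at E15.5. Pooled values of different stages are therefore not like for like. The part of this mix in the results was not tested, apart from the fit that weighted the 10 clusters equally. Without E13.5 only Neurog2, Neurod1, Neurod6 and Slc17a6 were called, and Eomes joined the 7 without E12.5, with the 10 clusters weighted equally and with cluster 3 left out of the rest.

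**Figure D1:**
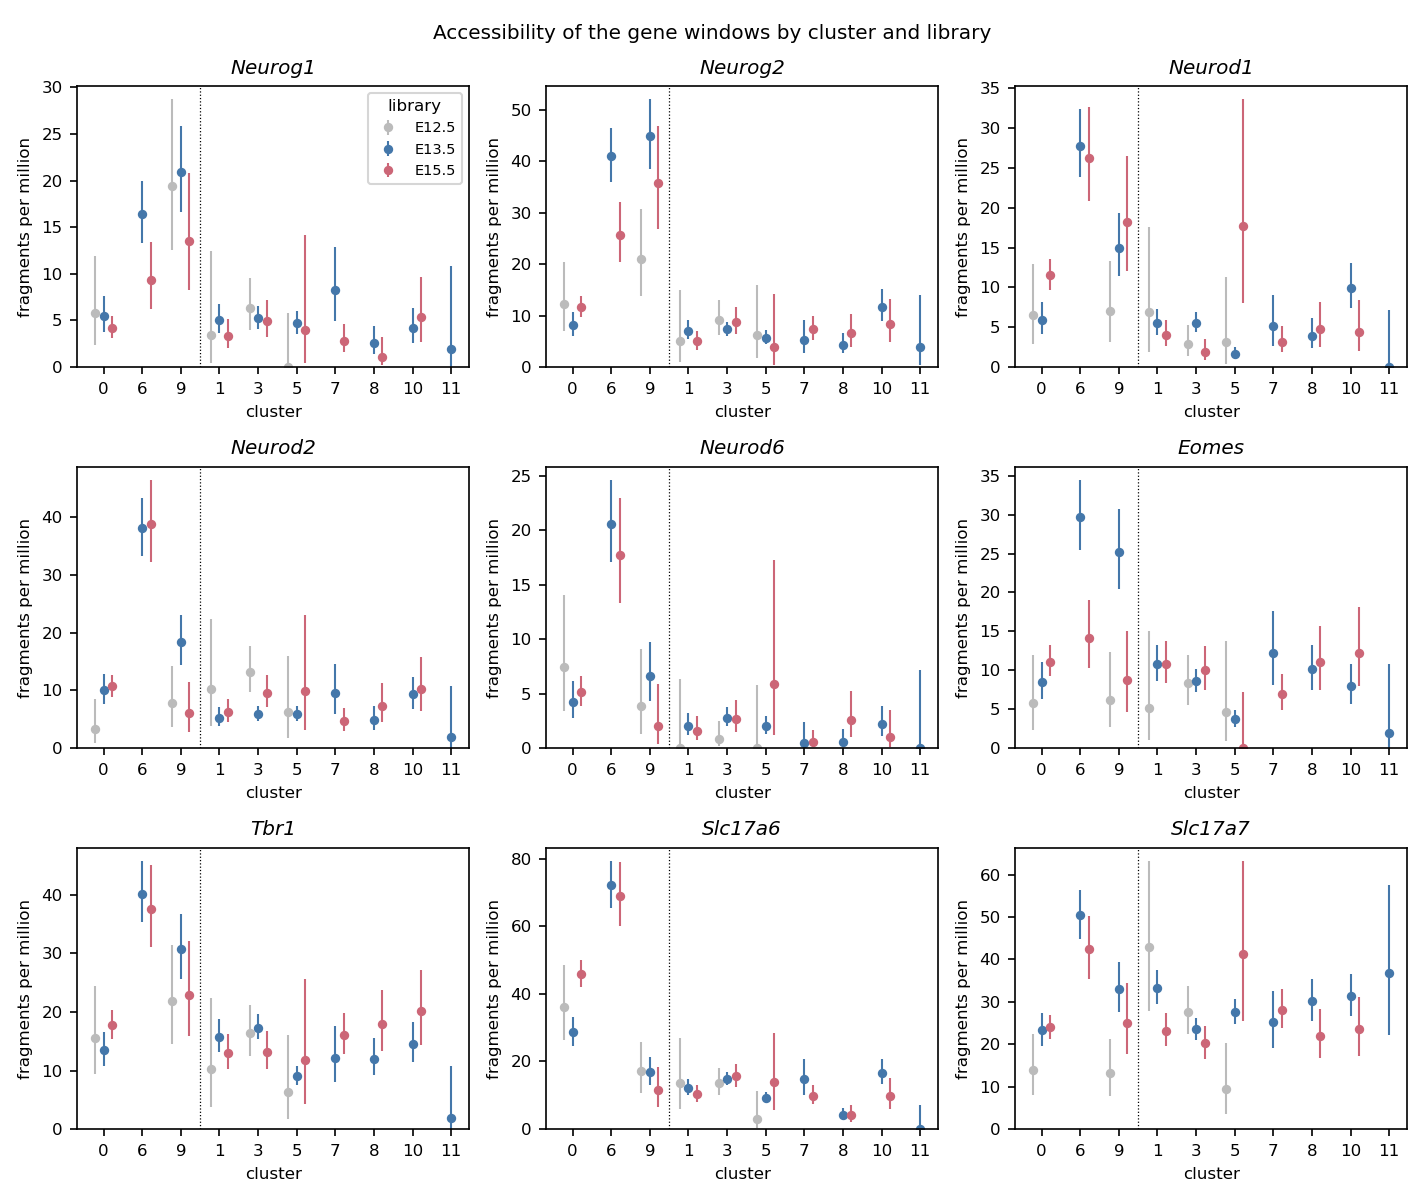
Accessibility of the 9 genes by cluster, in CPM over the gene window (vertical axes; each panel has its own scale). Points are single libraries with at least 10 nuclei, bars are 95% Poisson intervals, and the dotted line parts clusters 0, 6 and 9 from the rest; Slc17a6 reached 72.1 CPM in cluster 6 at E13.5, and Slc17a7 shows no step at the line.

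Within the neural clusters the genes fell into different patterns. Neurog1 and Neurog2 were high in clusters 6 and 9 and low in cluster 0. For Neurog2 the gene-window values were 24.4, 40.9 and 25.7 CPM in cluster 6, 21.0, 44.8 and 35.8 in cluster 9, and 12.3, 8.13 and 11.7 in cluster 0. Neurog1 gave 22.2, 16.4 and 9.31 in cluster 6, 19.4, 20.9 and 13.49 in cluster 9, and 5.76, 5.48 and 4.18 in cluster 0. For both genes, clusters 6 and 9 lay above cluster 0 in all libraries. By these values cluster 6 was above cluster 9 at E12.5, where cluster 6 has 5 nuclei, and cluster 9 above cluster 6 at E13.5 and E15.5. Whether clusters 6 and 9 differ at these genes was not tested.

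The Neurod genes were highest in cluster 6 at E13.5 and E15.5. Neurod2 had 35.5, 38.1 and 38.8 CPM in cluster 6, 7.78, 18.3 and 6.07 in cluster 9, and 3.29, 10.0 and 10.7 in cluster 0. Neurod1 had 19.99, 27.8 and 26.3 in cluster 6, 7.00, 15.03 and 18.2 in cluster 9, and 6.59, 5.94 and 11.5 in cluster 0. Neurod6 had 2.22, 20.6 and 17.7 in cluster 6, 3.89, 6.63 and 2.02 in cluster 9, and 7.41, 4.22 and 5.12 in cluster 0. Cluster 6 was above both other clusters at every stage for Neurod1 and Neurod2, and for Neurod6 at E13.5 and E15.5. At E12.5 its Neurod6 value is 1 fragment.

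Eomes and Tbr1 followed neither set exactly. Eomes had 8.88, 29.7 and 14.1 CPM in cluster 6, 6.22, 25.2 and 8.77 in cluster 9, and 5.76, 8.45 and 11.1 in cluster 0. Tbr1 had 19.99, 40.2 and 37.5 in cluster 6, 21.8, 30.8 and 22.9 in cluster 9, and 15.6, 13.45 and 17.8 in cluster 0. Eomes stood far above cluster 0 in clusters 6 and 9 at E13.5 alone, and Tbr1 was lowest in cluster 0 at every stage.

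Slc17a6 alone of the 9 had a higher level in cluster 0 than in cluster 9 at every stage. It had 36.2, 28.6 and 45.8 CPM in cluster 0, 46.6, 72.1 and 69.0 in cluster 6, and 17.1, 16.8 and 11.5 in cluster 9. Cluster 9 lay above the rest (12.45, 11.8 and 10.7 CPM) at every stage, by less than clusters 0 and 6 did. Slc17a7 had 14.0, 23.3 and 24.0 CPM in cluster 0, 19.99, 50.5 and 42.4 in cluster 6 and 13.2, 33.1 and 24.96 in cluster 9. Cluster 6 was the highest at every stage, at E12.5 on few fragments.

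Among the clusters of the rest, 13 sums with at least 10 nuclei at E13.5 or E15.5 gave 0 to 16.7 CPM for Slc17a6, 3.87 to 11.7 for Neurog2, 1.94 to 10.3 for Neurod2 and 0 to 5.90 for Neurod6. The upper values came from cluster 10, in which 6 of 6 muscle and 4 of 6 sensory neuron genes were at least 1.5-fold up, for the first 3 of these and from erythroid-like cluster 5 (6 of 6 erythroid genes) at E15.5, with 10 nuclei, for Neurod6. Neurod1 ranged from 0 to 17.7 CPM, the top value again in cluster 5 at E15.5, next to 9.92 in cluster 10 at E13.5. Slc17a7 ranged from 20.2 to 41.3 CPM and was thus open in clusters of every kind.

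At the promoter, from 1000 bp before to 100 bp after the gene start, the log2 folds against the rest were larger than over the gene window for Neurog2, the Neurod genes and Eomes, and not for the other 4 genes. Neurod6 had 2.47, 0.626 and 2.22 CPM in cluster 0, 0, 10.2 and 8.34 in cluster 6, 2.33, 2.29 and 1.35 in cluster 9 and 0.372, 0.509 and 0.360 in the rest. Neurod1 had 3.29, 2.82 and 4.95 in cluster 0, 13.3, 18.1 and 15.1 in cluster 6, 0.778, 7.13 and 8.77 in cluster 9 and 1.11, 1.06 and 0.945 in the rest. Neurod2 had 0.823, 2.35 and 2.13 in cluster 0, 13.3, 18.4 and 16.7 in cluster 6, 1.56, 5.10 and 1.35 in cluster 9 and 1.11, 1.30 and 1.17 in the rest. All 3 promoters were higher in cluster 6 than in cluster 0 at E13.5 and E15.5. The Neurod2 sequence, the 250 bases before the RefSeq start in mm10, is shown with CAGATG in capitals, because this promoter had the largest fitted fold between the neuron-like clusters among the 7 promoters tested there.
Neurod2 promoter, chr11:98329646-98329895 (- strand): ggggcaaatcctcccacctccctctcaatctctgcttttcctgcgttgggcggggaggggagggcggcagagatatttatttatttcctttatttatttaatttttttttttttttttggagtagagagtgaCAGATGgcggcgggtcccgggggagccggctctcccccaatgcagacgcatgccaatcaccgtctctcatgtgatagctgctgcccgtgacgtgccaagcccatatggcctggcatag
The proneural promoters were again open in both clusters 6 and 9. Neurog2 had 13.3, 17.8 and 8.34 CPM in cluster 6, 7.00, 20.4 and 12.8 in cluster 9, 1.65, 1.88 and 2.82 in cluster 0 and 2.42, 1.57 and 1.35 in the rest. Neurog1 had 15.54, 8.72 and 5.78 in cluster 6, 7.78, 14.0 and 10.8 in cluster 9, 1.65, 2.19 and 2.39 in cluster 0 and 3.72, 2.42 and 1.71 in the rest. In cluster 0 neither promoter stood above the rest at all stages.

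Promoter windows have one length, so genes can be ranked per kb. In cluster 6 at E13.5 the levels were 16.8 CPM per kb for Neurod2, 16.4 for Neurod1, 16.1 for Neurog2, 9.90 for Eomes, 9.29 for Neurod6, 7.92 for Neurog1, 4.26 for Slc17a6, 3.503 for Slc17a7 and 1.68 for Tbr1. The first 3 did not differ beyond their counting intervals, nor did the next 3, and the intervals of these sets did not overlap, while that of Slc17a6 overlapped that of Neurog1. The order is that of E13.5 and of the GENCODE starts. At E15.5 Neurog2 was level with Neurod6 in cluster 6, under Neurod1 and Neurod2. The last places change with the RefSeq starts of Tbr1 and Slc17a6. There cluster 6 had 8.55 CPM at Tbr1 and, at the second Slc17a6 start, 7.38 CPM in the whole window at E13.5. Both values are per window and not per kb, so they cannot be ranked directly with the values above.

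Against the rest, 6 of the 9 promoters were called higher and 0 lower, where 1164 of 15814 promoters tested (7.36%) were called higher. The log2 folds were 3.11 ± 0.41 for Neurod6 (edgeR adjusted p = 6.82e-05), 2.91 ± 0.32 for Neurod1 (1.32e-05), 2.35 ± 0.33 for Neurod2 (0.000125), 2.27 ± 0.32 for Neurog2 (0.000123), 1.29 ± 0.28 for Neurog1 (0.00465) and 1.44 ± 0.45 for Eomes (0.0430). Tbr1 (0.60 ± 0.46), Slc17a6 (0.85 ± 0.37) and Slc17a7 (-0.05 ± 0.30) did not pass. Eomes was not called without E13.5, without E15.5, by DESeq2, with all fragments as the library size or with 1000 bp on either side of the start, where Slc17a6 was, and Neurog1 was not called without E13.5. With the 10 clusters weighted equally, 5 of the 9 promoters passed the count filter and 4 were called (Neurog1, Neurog2, Neurod1 and Neurod2), so Neurod6 and Eomes had no call.

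**Figure D2:**
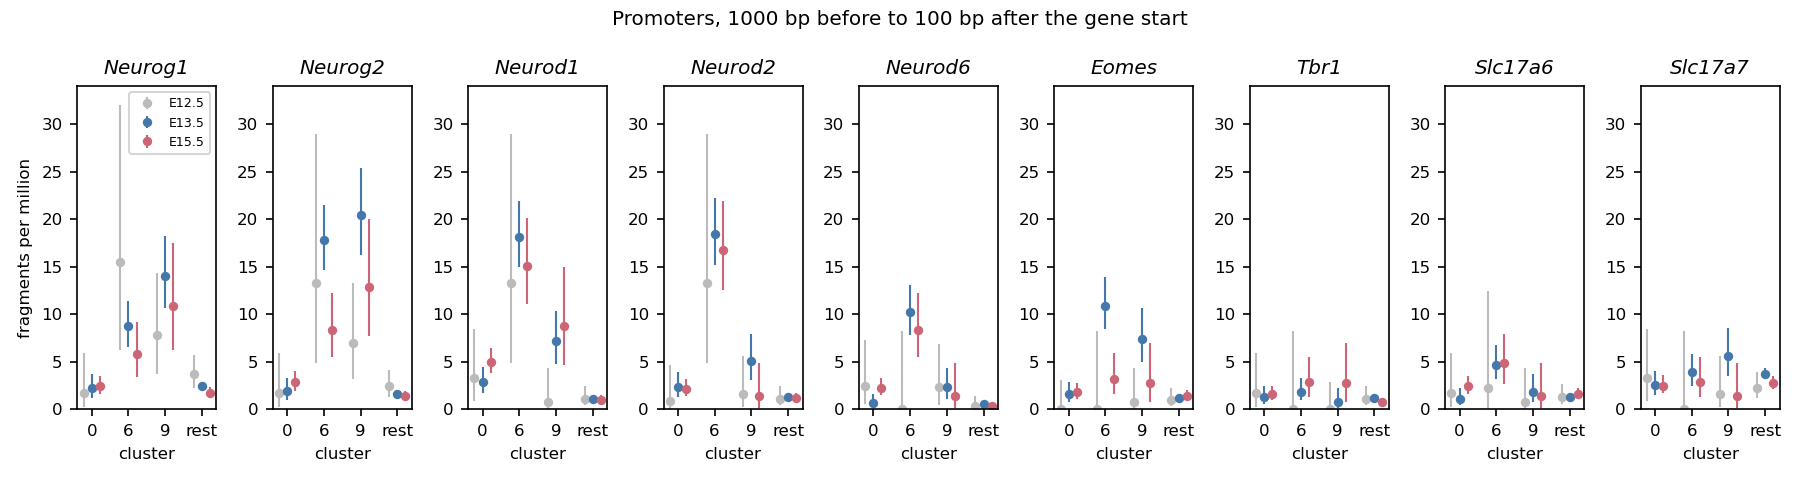
Promoter accessibility of the 9 genes in clusters 0, 6, 9 and the rest, in CPM on one common axis, with a point for each library and 95% Poisson intervals. Neurod1 and Neurod2 are high in cluster 6, Neurog1 and Neurog2 in clusters 6 and 9, and Tbr1 is low at the GENCODE start plotted here.

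The start that is used mattered for 2 genes. For Tbr1 the GENCODE and RefSeq starts differ by 1523 bp, and at the RefSeq start cluster 6 had 0, 8.55 and 8.02 CPM, cluster 0 had 0, 0.469 and 2.65, cluster 9 had 2.33, 2.55 and 2.02 and the rest 1.11, 1.12 and 0.945. For Slc17a6, RefSeq has a second start 2631 bp downstream, where cluster 6 had 2.22, 7.38 and 11.6 CPM, cluster 0 had 1.65, 1.88 and 2.22, cluster 9 had 0.778, 0.510 and 0.675 and the rest 0.557, 0.530 and 0.405. At E13.5 and E15.5 both starts were open in cluster 6 above all else. With these starts, a choice made after the data were seen, the log2 folds against the rest were 1.66 for Tbr1 and 2.79 for Slc17a6. Then 8 of the 9 promoters were called higher, where 1166 of 15814 tested were. Starts were moved only among the 9 genes, and all other genes kept their GENCODE starts. The first RefSeq start of Slc17a6, at -176 bp from the GENCODE start, was not used in this fit. There the neural clusters had 1.02, 2.03 and 2.27 CPM against 1.11, 1.12 and 1.31 in the rest. The 250 bases before the second Slc17a6 start hold 1 CAGATG, in capitals.
Slc17a6 second promoter, chr7:51624387-51624636 (+ strand): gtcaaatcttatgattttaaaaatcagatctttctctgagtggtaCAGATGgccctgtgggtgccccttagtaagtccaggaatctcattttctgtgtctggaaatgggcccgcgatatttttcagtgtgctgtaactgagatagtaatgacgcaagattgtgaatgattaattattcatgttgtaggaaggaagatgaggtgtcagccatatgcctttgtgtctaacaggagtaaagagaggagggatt
Of 10 RefSeq promoter sequences for the 9 genes (Slc17a6 has 2), 7 held an E-box CANNTG in the 250 bases before the start, as did 66.2% of all 32851 promoters. CAGATG or CATCTG was in 2 of 10 (14.4% of all), CATATG in 3 of 10 (3.46%; Neurod1, Neurod2 and the second of Slc17a6), CAGCTG in 0 of 10 (4271 of the 32851) and the T-box AGGTGTGA in 0 of 10 (1.12%). Both strands were searched, and the 6-base forms are themselves E-boxes.

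The 50 kb flanks of 7 genes were called higher in the neural clusters, with Eomes (log2 fold 0.36 ± 0.13) and Slc17a7 (-0.20 ± 0.11) the exceptions. The background was 1325 of 21155 flanks tested (6.26%) higher and 979 lower. The folds of the 7 ran from 0.57 ± 0.16 at Tbr1 to 0.94 ± 0.15 at Neurod6, and all 9 were lower than in the gene windows. With all fragments as the library size the median of all flanks was -0.127, the split was 779 higher and 2238 lower, and Neurod1 and Tbr1 were not called. Without E13.5 only Neurog1, Neurod2 and Neurod6 were called, without E15.5 these and Neurog2, and without E12.5 Eomes joined the 7. Eomes was also called with 25 kb flanks and with the 10 clusters weighted equally, and in the latter fit Slc17a7 was called lower. Slc17a7 has 11 other gene starts in its flanks, Neurod2 has 2, Neurog1, Neurod1 and Eomes 1 each, and the other 4 genes 0.

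**Figure D3:**
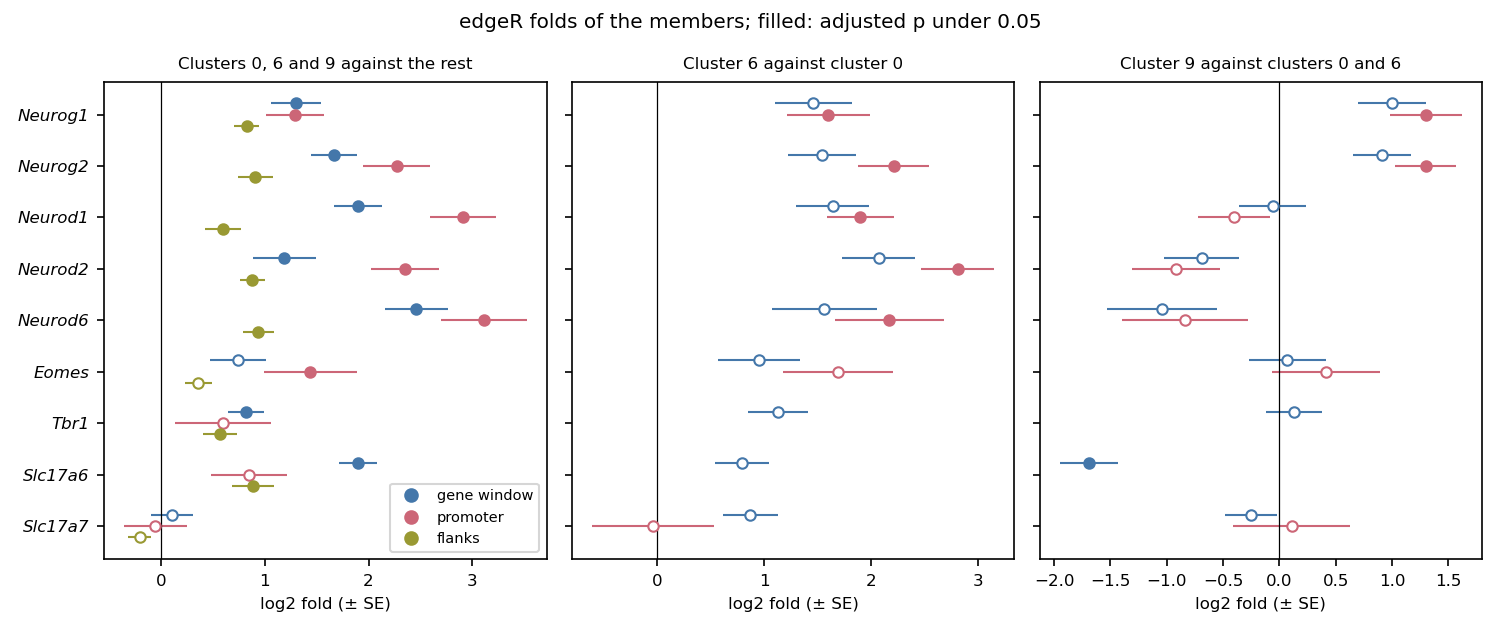
Log2 folds of the 9 genes (edgeR, bars are 1 SE) for the neural clusters against the rest, cluster 6 against cluster 0 and cluster 9 against clusters 0 and 6, by window. Filled symbols passed an adjusted p of 0.05; in the middle comparison they are promoters alone, led by Neurod2 at 2.81.

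Cluster 6 was then compared with cluster 0, both neuron-like. At the promoter, 5 of the 7 genes with enough counts were called higher in cluster 6 and 0 lower, where 24 of 11221 promoters tested (0.214%) were called higher and 6 (0.0535%) lower. The log2 folds were 2.81 ± 0.34 for Neurod2 (edgeR adjusted p = 1.72e-08), 2.21 ± 0.33 for Neurog2 (8.47e-06), 2.17 ± 0.51 for Neurod6 (0.0201), 1.90 ± 0.31 for Neurod1 (3.24e-05) and 1.60 ± 0.39 for Neurog1 (0.0305). Eomes had 1.69 ± 0.51 (0.181) and Slc17a7 -0.04 ± 0.57 (0.999), and Tbr1 and Slc17a6 were under the count filter. With all fragments as the library size the median of all promoters was 0.184 and 53 were higher and 3 lower, with the same 5 genes called. DESeq2 called 3 of them (Neurog2, Neurod1 and Neurod2); without E15.5 2 remained (Neurog2 and Neurod2), without E13.5 0, and without E12.5 Eomes joined the 5. With 1000 bp on either side of the start Neurog1 and Neurod6 were not called, and with the RefSeq starts, an alternative added after the data were seen, 8 were tested and Tbr1 joined the 5. Promoters took 11.1, 11.5 and 12.8 counts per 100 fragments in cluster 6 and 7.77, 10.1 and 11.8 in cluster 0; the part of this in the result was not tested, apart from the TMM factors.

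Over the gene window, edgeR called 0 of 17411 genes (0%) in this comparison, and 955 genes, among them all 9, had an unadjusted p under 0.05. The log2 folds of the 9 genes ranged from 0.79 ± 0.25 for Slc17a6 to 2.07 ± 0.34 for Neurod2 (adjusted p = 0.0927) and all were positive. DESeq2 called 23 genes higher and 3 lower, with Neurog2, Neurod1 and Neurod2 among them. Without the E12.5 library, whose cluster 6 has 5 nuclei, edgeR called 34 genes, among them Neurog2, Neurod1, Neurod2, Neurod6 and Tbr1.

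Cluster 9 was compared with the mean of clusters 0 and 6, progenitor-like against neuron-like. Over the gene window Slc17a6 alone of the 9 was called, lower in cluster 9 by a log2 fold of -1.69 ± 0.26 (edgeR adjusted p = 0.00186), where 68 of 17411 genes (0.391%) were called lower and 160 (0.919%) higher. Without E13.5 or without E15.5 it was not called, and without E12.5 Neurog2 was called too. At the promoter Neurog1 (1.30 ± 0.32, edgeR adjusted p = 0.00533) and Neurog2 (1.30 ± 0.27, adjusted p = 0.000894) were called higher, where 344 of 11221 promoters (3.07%) were higher and 92 lower. For both, cluster 0 was the lowest neural cluster at every stage and lowers the mean. At E12.5 cluster 6 was above cluster 9 at both promoters. Without E13.5 neither was called, and without E15.5 Neurog2 alone was. With all fragments as the library size the median was 0.111 and the split 457 higher and 49 lower, with both genes called. The Neurod2 and Neurod6 folds, -0.92 ± 0.39 and -0.84 ± 0.56, missed the threshold.

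Tiles around the genes showed where the accessibility lay. The upstream Neurod6 tile had 0.778, 7.13 and 10.8 CPM in cluster 9, 0, 1.17 and 1.60 in cluster 6, 0, 0.313 and 0.341 in cluster 0 and 1.11, 0.163 and 0.270 in the rest. At E13.5 and E15.5 it was thus open in progenitor-like cluster 9, in which the Neurod6 promoter had at most 2.33 CPM; E13.5 had chosen the tile. At E15.5 the counting interval was 6.17 to 17.5 CPM in cluster 9 and 0.521 to 3.74 in cluster 6. These rest on 16 and 5 fragments. E15.5 had not set the place of the tile, but its levels had been seen when the distal tiles printed above were picked. The order of clusters 6 and 9 at E15.5 is therefore no independent support for any of those tiles. At E12.5 the tile held 1 fragment in cluster 9 and fewer CPM there than in the rest.

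The Slc17a6 tile showed the opposite order. It had 2.22, 10.9 and 10.9 CPM in cluster 6, 0.778, 1.27 and 0 in cluster 9, 1.65, 0.939 and 1.11 in cluster 0 and 0.929, 0.774 and 0.540 in the rest. In the intron, then, the deeper libraries had the site open in cluster 6 alone, whereas the whole gene window was also high in cluster 0. At E15.5 the intervals were 7.56 to 15.2 CPM in cluster 6 and 0.591 to 1.90 in cluster 0, and cluster 9 had 0 fragments, which allows up to 2.49.

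The Neurod2 tile upstream of the gene had 6.66, 11.7 and 11.2 CPM in cluster 6, 5.45, 5.35 and 3.37 in cluster 9, 0, 1.56 and 2.65 in cluster 0 and 1.49, 1.12 and 0.945 in the rest. The Neurog2 tile had 3.89, 17.3 and 9.44 in cluster 9, 8.88, 8.38 and 2.89 in cluster 6, 2.47, 1.10 and 1.71 in cluster 0 and 1.11, 1.30 and 1.67 in the rest. Both tiles were above cluster 0 and the rest in clusters 6 and 9 at E13.5, the library that chose them. At E15.5 the intervals of clusters 9 and 6 overlapped at Neurog2 (5.16 to 15.8 and 1.32 to 5.48 CPM) and at Neurod2 (1.10 to 7.87 and 7.82 to 15.6). At that stage cluster 6 at Neurog2 and cluster 9 at Neurod2 also overlapped cluster 0 (1.04 to 2.64 and 1.80 to 3.76), which at Neurod2 lay above the rest (0.585 to 1.44).

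**Figure D4:**
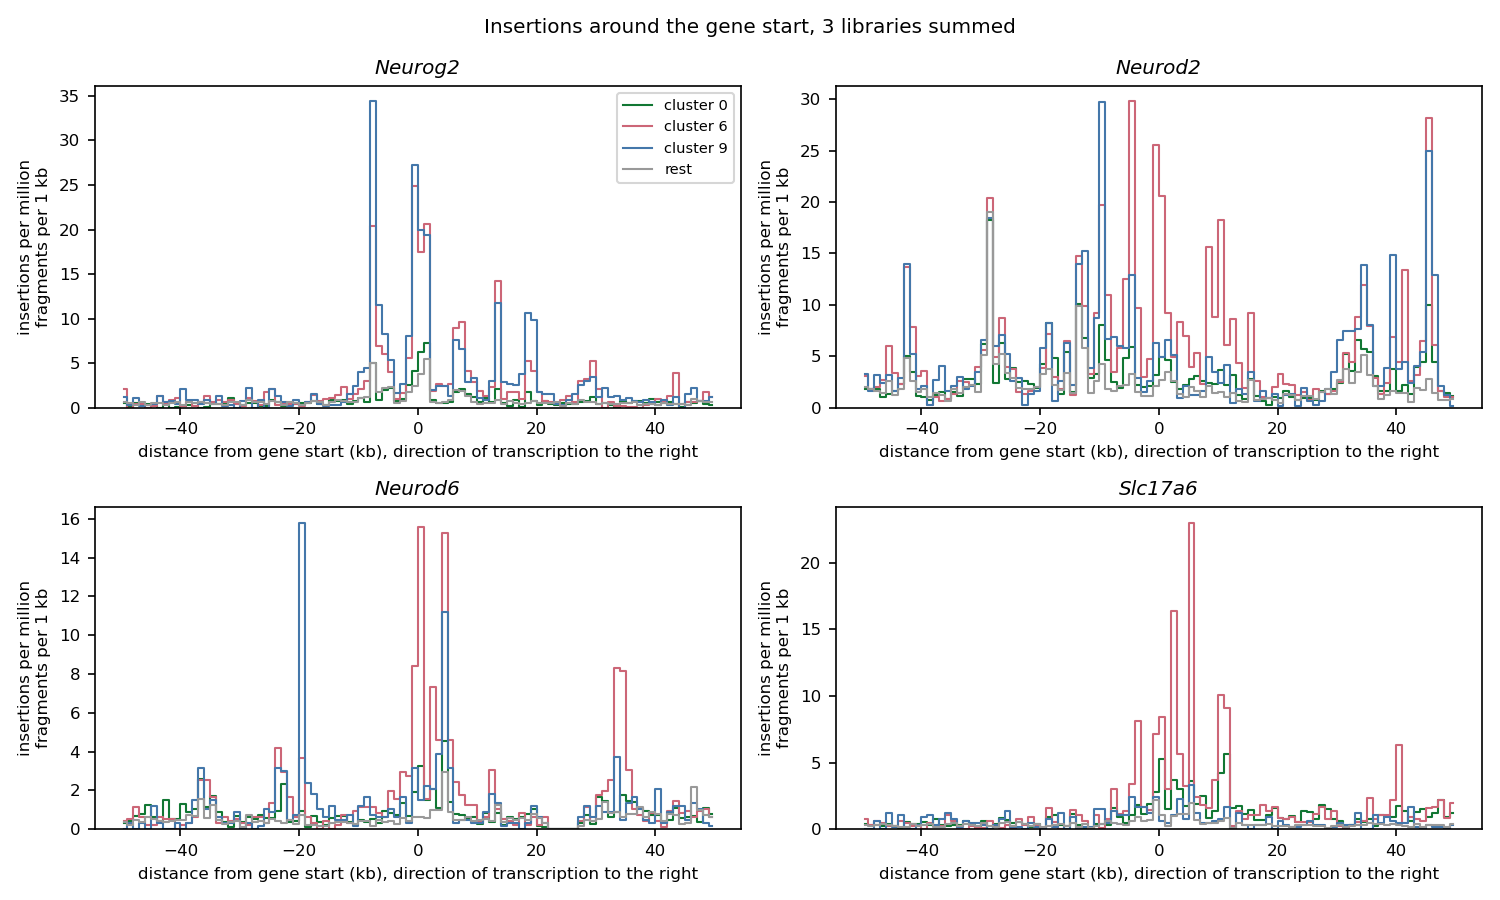
Tn5 insertions in 1 kb bins, in CPM, from 50 kb before to 50 kb after the starts of Neurog2, Neurod2, Neurod6 and Slc17a6, for clusters 0, 6, 9 and the rest, the 3 libraries summed. In the bin at -19500 bp of Neurod6 cluster 9 reached 15.8 against 3.67 in cluster 6, and at 5500 bp of Slc17a6 cluster 6 reached 23.0 against 3.29 in cluster 9.

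Tiles were also picked in E13.5 for the largest difference between the neural clusters and the rest. They were described in the other libraries by the ratio of the CPM values. For Neurog2 and Slc17a6 this gave the tiles already shown. The Tbr1 tile, 1820 bp past the GENCODE start, begins just after the RefSeq start. At 45398 bp past the Neurod2 start the ratio was 6.27 in E13.5, 3.65 (95% counting interval 0.779 to 22.5) in E12.5 and 5.76 (3.59 to 9.63) in E15.5. At 30913 bp past the Neurog1 start it was 4.88, then 7.30 (2.91 to 21.8) in E12.5 and 2.87 (1.80 to 4.68) in E15.5. At -7385 bp of Neurog2 it was 5.89, then 3.65 (1.27 to 11.8) and 1.58 (0.996 to 2.53). Neurog1 thus lay above 1 with its interval in both libraries that had not chosen the tile, Neurod2 in E15.5 and Neurog2 in E12.5. At E15.5 the intervals also lay above 1 for Neurod1 (1.37 to 6.20), Neurod6 (1.28 to 4.65), Tbr1 (1.92 to 6.44) and Slc17a6 (2.79 to 11.1), and at E12.5 those of the last 3 held 1, while the Neurod1 tile gave no ratio. For Eomes the ratios were 3.67, then 2.43 (0.411 to 16.6) and 1.30 (0.667 to 2.52). For Slc17a7 they were 1.34 (1.10 to 1.63), then 0.608 (0.265 to 1.28) and 1.06 (0.849 to 1.31), so that both genes had intervals that held 1 outside E13.5.

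**Figure D5:**
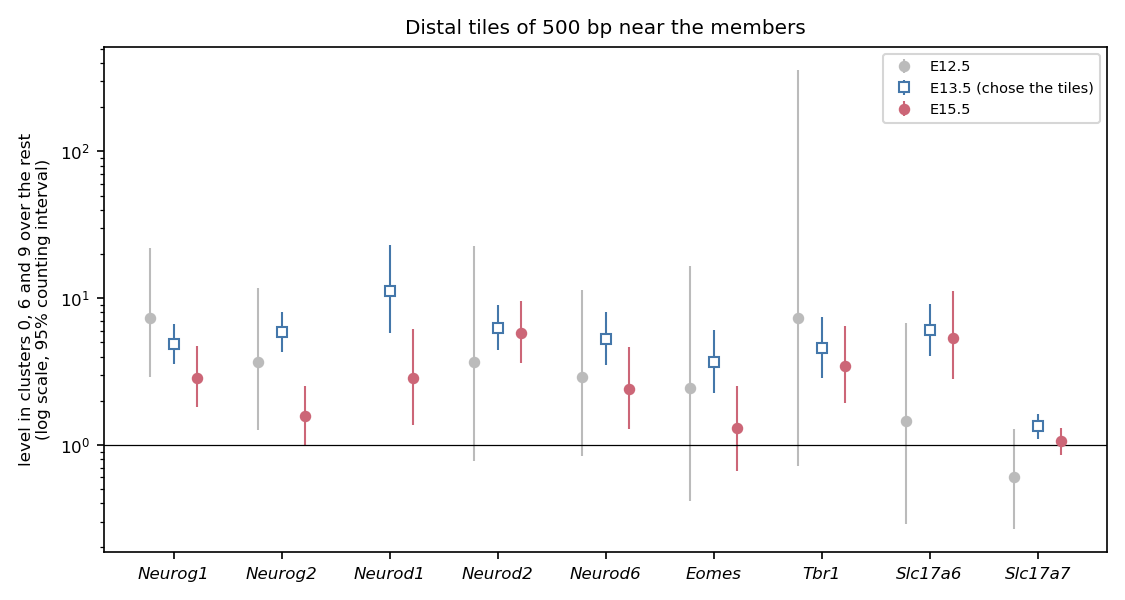
Ratio of accessibility, clusters 0, 6 and 9 over the rest, in the tile of each gene that E13.5 chose (squares), and in the same tile in the other libraries (log axis, bars are 95% counting intervals). All 9 E15.5 ratios are under the E13.5 ratio that chose the tile, with Neurod2 at 5.76 and Slc17a6 at 5.34 the highest of E15.5.

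Stage can be read only as a description, since each stage is 1 library. In cluster 6, E15.5 over E13.5 was 0.476 (95% counting interval 0.334 to 0.665) for Eomes, 0.566 (0.361 to 0.865) for Neurog1 and 0.628 (0.481 to 0.811) for Neurog2, against 1.02 (0.811 to 1.28) for Neurod2, 0.957 (0.809 to 1.13) for Slc17a6 and 0.933 (0.742 to 1.17) for Tbr1. The intervals of the first 3 lay under 1, and those of the other 3 held 1. In cluster 0 the ratio was 1.94 (1.34 to 2.86) for Neurod1 and 1.60 (1.35 to 1.90) for Slc17a6. In cluster 9 it was 0.348 (0.179 to 0.622) for Eomes and 0.331 (0.145 to 0.664) for Neurod2. These are examples and not all of the genes. From E13.5 to E15.5 the Neurog2 level rose in cluster 0, unlike in cluster 6, and the Neurod6 level fell in cluster 9. Stage, library and the mix of nuclei in a cluster cannot be told apart here.

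Shares of nuclei with a fragment in the gene window were also compared. Every nucleus was thinned to 10000 fragments, which left out shallower ones. At E13.5, 48.7% of 76 cluster 6 nuclei (95% Clopper-Pearson interval 37.0 to 60.4) had a fragment at Slc17a6, 21.8% of 87 in cluster 0 (13.7 to 32.0), 6 of 50 nuclei in cluster 9 (4.53 to 24.3%) and 4 of 160 in erythroid-like cluster 5 (0.685 to 6.28%), where the gene should be closed. Unthinned, the shares were 88.2%, 51.7%, 48.0% and 25.3%, at median depths of 67887.5, 63587, 71843 and 62521 fragments. For Neurod6 the thinned shares were 21.1%, 1.15% (0.0291 to 6.24), 4 of 50 nuclei (2.22 to 19.2%) and 1.25% (0.152 to 4.44), in the same order, and cluster 0 had 1 such nucleus. For Neurog2 they were 32.9% (22.5 to 44.6), 8.05% (3.30 to 15.9), 32.0% (19.5 to 46.7) and 1.25% (0.152 to 4.44).

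Lists of related genes were described by how many members were called in the neural clusters over the gene window, where 6.65% of all genes were called higher and the median log2 fold was -0.00262. Of 9 other proneural and neuronal factors, 5 were called higher and 0 lower, with a median log2 fold of 1.00; they included Insm1 (2.10 ± 0.19, adjusted p = 5.90e-05), a zinc finger factor of delaminating progenitors, and Nhlh2 (1.21 ± 0.22, adjusted p = 0.00271), a bHLH factor of young neurons. Of 12 cortical factors tested, 9 were higher (median 0.824), among them Fezf2 (1.86 ± 0.22, adjusted p = 0.000202), a factor of deep-layer cortical neurons. Of 10 glutamatergic factors outside the cortex, 6 were higher (median 0.698), among them Uncx (0.93 ± 0.18) and Lhx9 (0.86 ± 0.15). None of 9 glutamate handling genes was called in either direction (median 0.272); Slc1a6, an uptake transporter, had 0.67 ± 0.25 (adjusted p = 0.106). At the promoter, where 7.36% of all genes were called higher and 5.83% lower, 3 of 8 glutamate handling genes were called higher (median 0.532): Slc38a1, a glutamine transporter (0.89 ± 0.19, adjusted p = 0.00469), Slc1a2 (1.22 ± 0.31, adjusted p = 0.0121) and Slc1a1 (1.26 ± 0.32, adjusted p = 0.0138), both glutamate uptake transporters. Of the 10 glutamatergic factors outside the cortex, 3 were higher there and Tcf7l2 was lower (-0.86 ± 0.19, adjusted p = 0.00613). The promoter counts higher were 5 of 9 for the proneural factors, 6 of 11 for the cortical factors and 5 of 10 for the GABAergic genes. The 4 genes with promoter values were named after those were seen.

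GABAergic genes, which mark inhibitory neurons, were described for contrast. Of 11, 7 were called higher in the neural clusters over the gene window (median 0.898), where 6.65% of all genes were. They included Gad1, an enzyme that makes GABA (1.47 ± 0.16, edgeR adjusted p = 0.000164). Gad1 had 128, 75.1 and 80.8 CPM in cluster 0, 55.5, 29.3 and 42.7 in cluster 6, 42.0, 42.8 and 29.7 in cluster 9 and 19.3, 25.3 and 28.4 in the rest. Gad2, another such enzyme, chosen for naming after its values were seen, had 31.3, 82.1 and 57.5 CPM in cluster 0 and 53.3, 23.5 and 35.3 in cluster 6, so that the order of the clusters was reversed at E12.5, where cluster 6 has 5 nuclei. Over the gene window 0 of the 11 were called between clusters 6 and 0, where 0 of all 17411 genes were. At the promoter 2 of 9 were called, both lower in cluster 6, where 0.0535% of all promoters were called lower and 0.214% higher. At the promoter, cluster 6 was lower than cluster 0 at Slc32a1, the vesicular GABA transporter (-2.73 ± 0.52, edgeR adjusted p = 0.00115), and at Dlx5 (-2.05 ± 0.48, adjusted p = 0.0201), and higher at the bHLH factor Nhlh1 (2.41 ± 0.38, adjusted p = 1.92e-05) and at Hes6 (1.42 ± 0.30, adjusted p = 0.00479); these 4 were named after their values were seen. By DESeq2, without E13.5 and without E15.5, 0 promoters were called lower, so both lower calls were lost in each. Without E13.5 only 1 promoter in all was called higher, so Nhlh1 and Hes6 did not both keep their calls.

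The genes most alike to each of the 9, by Pearson r of log2(CPM + 1) over 19 sums of cluster and library that share clusters and depth, included another of the 9 for Neurod2 and Neurod6. Neurod2 was most like Neurod6 (r = 0.879), and Slc17a6 followed it (0.841). Neurod6 was most like Neurod2 and then Atp2b2 (0.875). Neurog2 was most like Rgs20 (0.888), Emx2 (0.887) and Rhbdl3 (0.886), and Rhbdl3 was also near Neurog1 (0.853), which was led by Actr3b (0.858). Tbr1 was most like Gucy1b2 (0.942), Slc17a6 Mgat5b (0.927), Eomes Csrp2 (0.906), Neurod1 Sez6 (0.890) and Slc17a7 Eif3m (0.815). The lowest r between any pair of the 9 was -0.109, for Eomes and Slc17a7.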

How the data were processed

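Per the labels, nuclei from frozen sections were stained with 7-AAD, sorted and processed with the 10x single-nucleus ATAC kit, and the submitters' processing notes name Cell Ranger ATAC 2.0.0, Signac 1.6.0, Seurat 4.1.0 and mm10. The deposited files hold unique fragments with their read-pair counts, and a cell table of 23 columns, of which 20 were not used; barcodes, samples and clusters were taken from it, and doublets were not called here. How the submitters' clusters were set was taken as given. The libraries share 1 barcode.

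Fragments were counted over gene windows, promoters and 50 kb flanks of 21605 protein-coding genes of the GENCODE annotation, leaving out 76 of the Pcdh and Ugt clusters, 231 over 500 kb and 26 with a repeated symbol. Sums per class and library were tested with edgeR 4.0.16 (quasi-likelihood, TMM factors, filterByExpr, library as a block, Benjamini-Hochberg over all genes tested), and DESeq2 1.42.0 served as an alternative; R was 4.3.3 and Python 3.11.15. Library is a block because the classes of 1 library share a suspension. Nothing gives a second sample of a stage, so p-values rest on how the difference between classes varied over 3 libraries of different stages. That spread was estimated with the help of all genes. Alternatives were RLE factors, all fragments as the library size, no count filter, no block, each library left out, nuclei of at least 1000 fragments, 1 barcode per group of barcodes that share fragments, the 10 clusters weighted equally, the rest without cluster 3 or with clusters 2 and 4, other promoter and flank widths, and flanks with other gene starts masked. Intervals cover counting error only. On simulated counts for the neural comparison with 19798 unchanged genes, 90.6% of genes doubled, 78.6% of genes at a true fold of 0.5 and 0.0253% of unchanged ones were called. For cluster 6 against cluster 0, with 17042 unchanged genes, these were 78.4%, 63.3% and 0.0411%. The simulated counts had a fixed spread shared by all genes and no differences between stages. These rates therefore check the procedure and need not hold for the libraries themselves. The named genes are the 9 members, genes among the 2 to 4 of each list with the smallest p (some are not reported here), and for each member the 3 genes most alike by r. The members and lists were chosen with earlier results of these data known.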

Additional observations from a re-analysis of the deposited data

Results flagged for a closer look

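Clusters 2 and 4 are shallow and were part of the rest only in an alternative. All 9 genes were looked at there over the gene window, in both clusters and all 3 libraries. Among these, 4 levels lay above those of the rest with their 95% counting intervals. Neurod2 had 18.1 CPM in cluster 2 at E13.5 (27 fragments, interval 11.96 to 26.4, against 6.17 in the rest) and 15.8 at E15.5 (14 fragments, 8.66 to 26.6, against 7.25). Slc17a6 had 23.8 CPM in cluster 2 at E15.5 (21 fragments, 14.7 to 36.3, against 10.7). Neurog2 had 43.0 CPM in cluster 4 at E13.5 on 3 fragments (8.87 to 126, against 6.85). Some barcodes share fragments with another barcode of their library. These were 8 of 105 in cluster 2 at E13.5, 37 of 88 there at E15.5 and 4 of 56 in cluster 4 at E13.5. A fragment may thus be counted more than once. The intervals allow neither for this nor for the number of levels looked at. The difference was not tested.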

How the results depend on the processing

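Of the counts of called genes among the 9 under each alternative, 71 stayed within 1.5 times the value reported, 4 were more and 12 fewer. For cluster 6 against cluster 0 the gene-window count was 3 by DESeq2 and 3 with no filter on low counts, in place of 0, and the promoter count was 3 by DESeq2 and 3 with 1000 bp on either side, in place of 5. The promoter count for cluster 9 was 1 by DESeq2, in place of 2. Leaving out 1 library gave 4 to 8 genes (gene window), 4 to 6 (promoter) and 3 to 8 (flanks) for the neural clusters, 0 to 5 and 0 to 6 for cluster 6 against cluster 0 at gene window and promoter, and 0 to 2 in both windows for cluster 9. The fit with no replicate block changed none of these counts among the 9 genes.

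The fold changed sign for Slc17a7 against the rest over the gene window (-0.19 to 0.39 over the fits that leave out 1 library) and at the promoter (0.90 with the 10 clusters weighted equally, 0.15 without cluster 3), in cluster 6 against cluster 0 (0.14 with all fragments as the library size, 0.23 without E12.5, 0.08 with no replicate block, 0.30 with 1000 bp on either side) and in cluster 9 (-0.02 by DESeq2). It also did for Slc1a3 against the rest (0.64 with equal weights, 0.02 without cluster 3), and in cluster 9 for Neurod1 (-0.24 to 0.08 on leaving out 1 library), Eomes (-0.41 to 0.35) and Tbr1 (-0.01 to 0.28). None of these values was called in the comparison as reported. The cause was not tested.

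Over all genes, 2172 were called in the gene window against the rest, 4630 with equal weights, 3401 without E12.5, 915 without E13.5 and 967 without E15.5. At the promoter 2086 were called, 981 by DESeq2, 3288 with equal weights, 824 without E13.5 and 566 without E15.5. In the flanks 2304 were called, 5768 with equal weights, 4882 without E12.5, 869 without E13.5 and 1209 without E15.5. In cluster 6 against cluster 0 at the promoter 30 were called, 6 by DESeq2, 56 with all fragments, 91 without E12.5, 1 without E13.5 and 5 without E15.5. In cluster 9 the gene window gave 228, 346 with no filter on low counts, 597 without E12.5, 4 without E13.5 and 0 without E15.5, and the promoter 436, 159 by DESeq2, 726 without E12.5, 48 without E13.5 and 54 without E15.5. At E12.5 the clusters 0, 6 and 9 hold 11, 5 and 11 nuclei, which limits the counts there.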

Other observations

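Nuclei can hold fragments at both kinds of locus. At E13.5, of 76 thinned cluster 6 nuclei, 37 had a fragment at Slc17a6, 33 at Neurod2 or Neurod6, and 15 at both; 35 had one at Gad1, Gad2 or Slc32a1, and 19 of these also at Slc17a6. In cluster 0 at E13.5, of 87 nuclei, 19 had a fragment at Slc17a6, 68 at a GABAergic gene and 12 at both. At E15.5, of 164 cluster 0 nuclei, 48, 117 and 28 did, and of 47 cluster 6 nuclei, 26, 23 and 12. Such fragments were also found outside the neural clusters. At E13.5 the rest had 25.3, 19.5 and 8.96 CPM at Gad1, Gad2 and Slc32a1, near the 29.3, 23.5 and 11.2 of cluster 6. The joint counts are therefore no evidence of nuclei with both identities. Whether they differ from those of unrelated loci, and whether barcodes with both hold more than 1 nucleus, was not tested.

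Of 12 genes tested from the list of cortical projection neuron factors, 3 were called higher in cluster 9 than in clusters 0 and 6 over the gene window, where 0.919% of all genes were: Pax6 (log2 fold 1.21 ± 0.19, edgeR adjusted p = 0.00307), Fezf2 (1.56 ± 0.30, adjusted p = 0.0102) and Lhx2 (0.75 ± 0.18, adjusted p = 0.0440). Of 9 glutamate handling genes 1 was called higher, Slc1a3 (1.04 ± 0.21, adjusted p = 0.0130), the glutamate transporter of radial glia. Of 8 proneural and neuronal factors tested 1 was called lower, where 0.391% of all genes were. It was Nhlh2, a bHLH factor of young neurons (-1.50 ± 0.37, edgeR adjusted p = 0.0468). These 5 were the calls among the genes of the lists over the gene window. Without E15.5, 0 genes were called, so all 5 were lost, and without E13.5 4 genes were higher and 0 lower, so Nhlh2 was lost. At the promoter, where 3.07% of all genes were called higher, the calls were Hes6 (0.91 ± 0.26, adjusted p = 0.0242), Emx1 (1.46 ± 0.36, adjusted p = 0.00749), Pax6 (1.54 ± 0.42, adjusted p = 0.0181) and Tcf7l2 (1.24 ± 0.27, adjusted p = 0.00133), all higher. All of them were named after their values were seen.

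Another tile near Neurod2, 39398 bp past its start, had 0.778, 9.43 and 5.40 CPM in cluster 9 and 0, 2.68 and 2.25 in cluster 6. E13.5 had chosen it for this difference, and at E15.5 the counting intervals overlapped (2.33 to 10.6 and 0.903 to 4.63).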
